A study of Mus musculus with 5 samples.

Results

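Alveolar type 1 cells are the thin, flat cells that cover most of the gas-exchange surface of the lung. The genes described here are 9 that mark these cells, namely Ager, Aqp5, Hopx, Pdpn, Rtkn2, Clic5, Emp2, Cav1 and Akap5. Every probe set to which the platform annotation gave 1 of these symbols and no other was taken, which gave 18 probe sets for the 9 genes, out of 34958 probe sets with a single symbol and 18194 genes in all. All 9 genes passed the floor, an intensity of 64 in at least 1 array, as 11500 genes did in the whole table.

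Whole lung of female mice was profiled with 1 array for each of 5 strains. The 4B(-/-) strain lacks PDE4B, 4B(+/+) is the wild-type line of that name, 4D(-/-) lacks PDE4D, 4D(+/+) is its wild-type line, and C57 is the parental C57BL/6J strain. The 4 lines started from a C57BL/6 × 129/Ola background and were backcrossed to C57BL/6J for at least 11 generations, so C57 is the only strain without that history. All mice were naive, without elastase, and no age is given in the labels. RNA of 3 of 5 lungs was mixed for each strain. No difference between strains therefore has a replicate check, no p-value is given, and the spread between animals cannot be seen. Each targeted enzyme is a phosphodiesterase that degrades cyclic AMP, and the labels name no restriction of either knockout to a cell type.

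Type 1 cells can arise from type 2 cells, the makers of surfactant, and lie against the capillary endothelium across a shared basement membrane. Ager encodes the receptor for advanced glycation end products and Pdpn the mucin-like glycoprotein podoplanin, both on the type 1 cell surface. Aqp5 is a water channel of the apical membrane that is also made by salivary and airway glands, and in a mouse lung epithelial line cyclic AMP is known to raise it. Clic5 belongs to the chloride intracellular channel family and is linked to the actin cortex, Emp2 is a membrane protein with several membrane spans, and Cav1 builds caveolae. Akap5 anchors protein kinase A, the main sensor of cyclic AMP, together with other signalling enzymes near the membrane. Hopx is an atypical homeodomain protein that does not bind DNA. Cav1 is also abundant in endothelium and fat, and Pdpn in lymphatic endothelium and mesothelium. In whole lung these 2 genes, like Aqp5, therefore do not report type 1 cells alone.

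The arrays had median intensities between 45.4 and 46.6. The 3 Pde4b probe sets that passed the floor gave 457, 397 and 164 in 4B(-/-), against 558, 490 and 219 in 4B(+/+). In C57 they gave 438, 464 and 199, the first of them under its 4B(-/-) value. For Pde4d, the one usable probe set gave 386 in 4D(-/-), against 523 in 4D(+/+). Since the labels do not state which part of each gene was deleted, these probe sets cannot check the labels. By its brightest probe set, each of the 9 type 1 genes read at least 503 on all 5 arrays.

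RefSeq start sites on GRCm38.p6 were matched for 8 of the 9 genes, in 10 windows of 250 bases before to 50 after the start. Shown are the windows of Akap5 and Clic5, the members with the widest spread over strains, and of Pdpn, the one window with the core of the cyclic AMP response element. Capitals mark the GC box GGGCGG and the element core TGACG on either strand. The Akap5 window is chr12:76324641-76324940 on the plus strand, the Clic5 window chr17:44188322-44188621 on the plus strand, and the Pdpn window chr4:143299515-143299814 on the minus strand.
Akap5: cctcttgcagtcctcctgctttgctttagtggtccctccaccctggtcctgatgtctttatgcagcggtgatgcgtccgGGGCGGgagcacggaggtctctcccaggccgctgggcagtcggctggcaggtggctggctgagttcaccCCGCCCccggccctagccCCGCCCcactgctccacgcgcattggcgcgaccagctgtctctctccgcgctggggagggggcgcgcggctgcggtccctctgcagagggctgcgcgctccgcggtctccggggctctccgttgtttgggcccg
Clic5: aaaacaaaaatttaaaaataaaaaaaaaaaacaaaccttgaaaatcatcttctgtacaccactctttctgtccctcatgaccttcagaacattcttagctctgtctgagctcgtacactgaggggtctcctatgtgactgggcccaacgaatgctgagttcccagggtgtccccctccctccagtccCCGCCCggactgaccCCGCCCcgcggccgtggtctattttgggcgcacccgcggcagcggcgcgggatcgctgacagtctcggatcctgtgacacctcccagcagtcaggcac
Pdpn: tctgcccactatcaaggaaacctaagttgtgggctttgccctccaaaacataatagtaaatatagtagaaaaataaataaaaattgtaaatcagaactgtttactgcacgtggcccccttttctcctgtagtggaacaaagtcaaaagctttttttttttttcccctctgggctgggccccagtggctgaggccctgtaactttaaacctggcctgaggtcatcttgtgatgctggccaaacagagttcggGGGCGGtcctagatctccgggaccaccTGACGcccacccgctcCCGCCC
The full cyclic AMP response element TGACGTCA was in 0 of the 10 windows, and in 1.79% of all 32851 windows of this length. Its core TGACG was in 1 of 10, against 20.8% of all windows. The GC box was in 6 of 10 windows, of 6 genes, against 35.7% of all, with 3 matches in Akap5, 3 in Aqp5, 4 in Emp2 and 2 each in Clic5, Cav1 and Pdpn. The TEAD motif GGAATG was in 0 of 10, against 14.7% of all, the NKX2-1 motif CAAGTG in 1, in Hopx, against 13.6%, and the TATA box TATAAA in 1, in Cav1, against 13.6%. The full element contains its core, and no other pair of these motifs overlaps by design. The Akap5 window was 70.7% G and C and that of Aqp5 79.7%, where the median of all windows was 52.7%. A match is a run of letters and not a binding site, and letters absent from these windows say nothing of the factors.

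Most of the 9 genes were low in 4D(+/+) and most were high in C57, while the order of the other strains differed between genes. Of the 9, 7 were lowest in 4D(+/+), where 20% of all genes over the floor were lowest, and 6 were highest in C57, where 26% of all genes were highest. Of the 18 probe sets, 15 were lowest in 4D(+/+) and 13 highest in C57, where 20.1% and 26.5% of the 18648 probe sets over the floor were. Centred on each gene's own mean over the 5 arrays, the members' median stood at -0.01 in 4B(-/-), -0.02 in 4B(+/+), 0.09 in 4D(-/-), -0.13 in 4D(+/+) and 0.10 in C57 on the log2 scale. The plot of members by strain shows the dip in 4D(+/+) and the height of Akap5 in C57. In whole lung, fewer type 1 cells, less RNA per cell and a larger share of other tissue in the sample cannot be told apart.

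**Figure D1:**
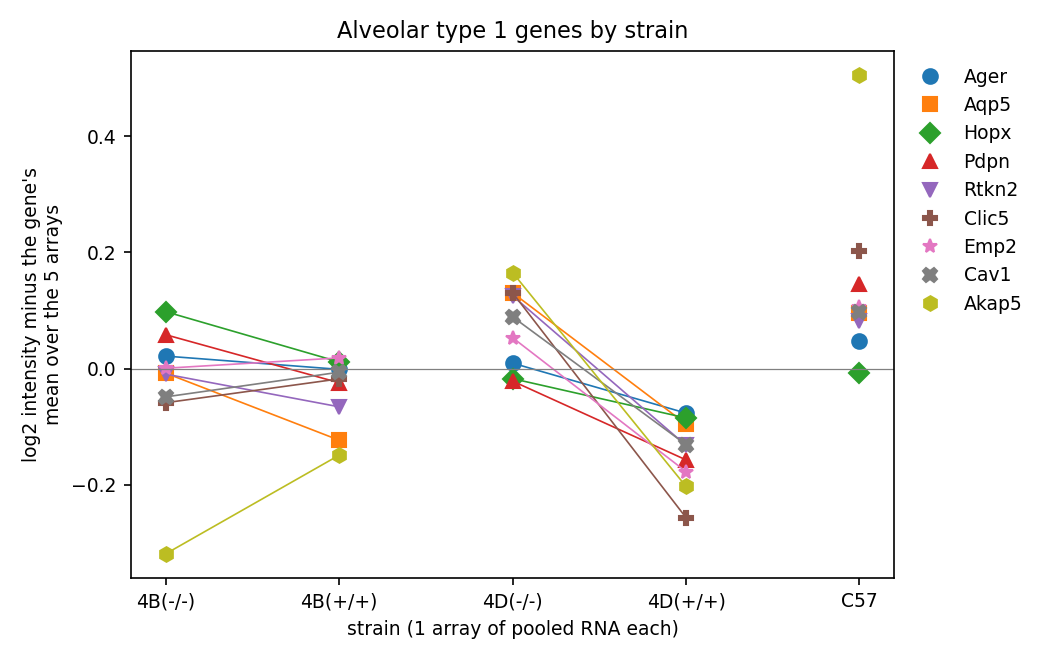
Level of each of the 9 type 1 genes on each array, as log2 intensity minus the gene's mean over the 5 arrays, with 1 array of pooled RNA per strain and a thin line joining each knockout to its own wild-type line. Each gene is shown by its brightest probe set. All 9 genes lie below their own mean in 4D(+/+), and Akap5 stands apart at the bottom in 4B(-/-) and at the top in C57.

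The spread over strains was small for most members. The highest array exceeded the lowest by 1.09-fold for Ager, 1.14-fold for Hopx, 1.17-fold for Cav1, 1.19-fold for Aqp5, 1.196-fold for Rtkn2, 1.22-fold for Emp2 and 1.23-fold for Pdpn. The median range of all genes over the floor was 1.22-fold, so these 7 genes varied about as little as an ordinary gene of the array. Clic5, at 1.38-fold, varied more than 76.1% of genes, and Akap5, at 1.77-fold, more than 94.3%. The brightest Ager probe set read close to the top of the scale, which ended at 24791 to 25287, where differences can be compressed.

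The first question was how these genes differed in the lung without PDE4D. In 4D(-/-) all 9 were higher than in 4D(+/+), with a median log2 difference of 0.23, where 45.6% of all genes were higher and the median of all genes was 0.00. Only Clic5 and Akap5 passed 1.2-fold, 2 of 9, and 0 were lower by as much, where 9.64% of all genes were higher and 16.3% lower by at least 1.2-fold. None of the 9 reached 1.5-fold, as 1.1% of all genes did upward and 4.53% downward.

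Among the membrane proteins, Clic5 read 3213 in 4D(-/-) and 2457 in 4D(+/+), with 2818 in 4B(-/-), 2899 in 4B(+/+) and 3378 in C57. This is a 1.31-fold difference between the knockout and its line, and the knockout lay inside the span of the 3 wild-type arrays. The water channel gene Aqp5 read 3050 in 4D(-/-), the highest of all arrays, against 2608 in 4D(+/+), and 2771, 2558 and 2978 in 4B(-/-), 4B(+/+) and C57. Aqp5 was thus 1.17-fold higher than in its own line and 1.02-fold higher than in C57. Emp2 read 7717 in 4D(-/-) and 6576 in 4D(+/+), beside 7440 in 4B(-/-), 7533 in 4B(+/+) and 8002 in C57. The 4D(-/-) value, 1.17-fold above its line, was again below that of C57.

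Cav1 read 9091 in 4D(-/-) and 7805 in 4D(+/+), and 8262 in 4B(-/-), 8510 in 4B(+/+) and 9140 in C57. It was 1.16-fold higher in the knockout than in its line and level with C57. The surface markers moved less. Pdpn read 2576 in 4D(-/-) and 2345 in 4D(+/+), a 1.10-fold difference, with 2723 in 4B(-/-), 2571 in 4B(+/+) and 2892 in C57. Ager read 19620 in 4D(-/-) and 18484 in 4D(+/+), a 1.06-fold difference, with 19786, 19475 and 20143 in 4B(-/-), 4B(+/+) and C57.

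Of the genes that act inside the cell, the kinase anchor Akap5 read 1176 in 4D(-/-) and 911 in 4D(+/+), 1.29-fold higher, with 841 in 4B(-/-), 946 in 4B(+/+) and 1490 in C57. The 4D(-/-) lung was between C57 and the other 3 strains. Rtkn2 read 602 in 4D(-/-) and 503 in 4D(+/+), with 548, 527 and 584 in 4B(-/-), 4B(+/+) and C57, and its log2 difference of 0.258 fell just short of 1.2-fold, which is 0.263. Hopx read 11716 in 4D(-/-) and 11179 in 4D(+/+), 1.05-fold higher, with 12692, 11952 and 11801 in 4B(-/-), 4B(+/+) and C57. Aqp5 and Rtkn2 were above all 3 wild-type arrays in 4D(-/-), 2 of 9 where 20.7% of all genes were, and 0 members were below all 3, where 31.6% of all genes were.

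The difference depended on the wild-type array. Set against C57 the 9 had a median of -0.04. Of these 0 were higher by 1.2-fold, where 6.12% of all genes were, and 1, Akap5, was lower, where 8.97% were. In this setting 7 of the 9 were lower than in C57 by any amount, so that 7 members turned sign. Of all 11500 genes 6481 were lower than in C57, and the median of all genes was -0.02. The log2 difference was -0.34 for Akap5, -0.167 for Pdpn, -0.072 for Clic5, -0.052 for Emp2 and -0.038 for Ager, and at -0.010 for Hopx and -0.0077 for Cav1 it was close to 0. When the 3 wild-type arrays were averaged in its place, the median was 0.10. The 4D(+/+) array also had the highest summed intensity of skeletal muscle, fat and gland genes. All 11 skeletal muscle genes were lower in 4D(-/-), with summed intensities of 11202 in 4D(-/-) and 45254 in 4D(+/+), against 5137 to 10869 in the other 3 arrays. Fat genes summed to 8706 in 4D(-/-) and 18036 in 4D(+/+), with 7 of 8 lower by 1.2-fold, and gland products to 35535 and 63305 in the same order of strains, with 8 of 9 lower. The part of such tissue in the type 1 difference was not tested.

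**Figure D2:**
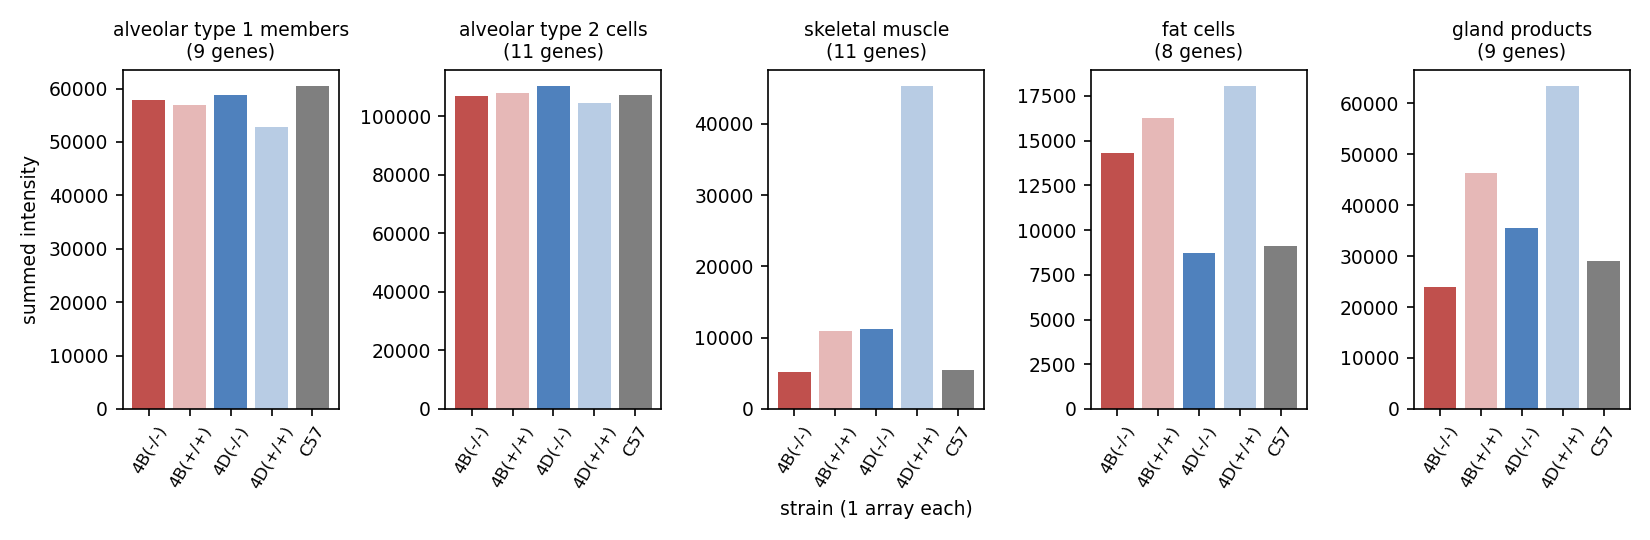
Summed intensity of 5 gene lists on each array, with the number of genes over the floor in brackets. The type 1 sum is lowest in 4D(+/+), at 52870, where the skeletal muscle, fat and gland sums are highest.

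The same question for PDE4B gave a flat result. Of the 9 genes 5 read higher in 4B(-/-) than in 4B(+/+), where 52.1% of all genes did, and 4 lower, where 39.8% did. Their median was 0.02, and 0 passed 1.2-fold in either direction, where 4.55% of all genes were higher and 5.52% lower by as much. Aqp5 was 1.08-fold, Hopx 1.06-fold, Pdpn 1.06-fold, Rtkn2 1.04-fold and Ager 1.02-fold higher. Akap5 was 1.12-fold lower, and Clic5, Cav1 and Emp2 were lower by 1.03-fold, 1.03-fold and 1.01-fold. Hopx was above all 3 wild-type arrays in 4B(-/-), 1 of 9 where 31.2% of genes were, and Akap5 below all 3, 1 of 9 where 20.9% were. Each of these held for the brightest probe set of the gene only. In this comparison skeletal muscle, fat and gland lists were lower too, with 10 of 11, 3 of 8 and 7 of 9 genes below by 1.2-fold. Their sums were 5137, 14305 and 23891 in 4B(-/-), against 10869, 16272 and 46291 in 4B(+/+), and their part in the type 1 values was not tested.

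The wild-type lines were set against C57 to see what the lines carried without a knockout. In 4D(+/+) all 9 type 1 genes were lower than in C57, with a median of -0.23, where 50.6% of all genes were lower. By at least 1.2-fold 4 of 9 were lower and 0 higher, where 12.3% of all genes were lower and 12.9% higher. These were Akap5 at 1.63-fold, Clic5 at 1.38-fold, Pdpn at 1.23-fold and Emp2 at 1.22-fold. Akap5 was the single member past 1.5-fold, where 1.24% of all genes were lower by as much. Cav1 (1.17-fold), Rtkn2 (1.16-fold), Aqp5 (1.14-fold), Ager (1.09-fold) and Hopx (1.06-fold) were lower by less.

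In 4B(+/+) 8 of the 9 were lower than in C57, where 46.2% of all genes were, with a median of -0.15, and Hopx alone was higher, by 1.01-fold. Only Akap5 passed 1.2-fold, at 1.57-fold lower, where 10.7% of all genes were lower by 1.2-fold, 9.73% higher, and 1.33% lower by 1.5-fold. Clic5 was 1.17-fold, Aqp5 1.16-fold, Pdpn 1.12-fold and Rtkn2 1.11-fold lower. The 2 wild-type comparisons share the C57 array, and each knockout comparison shares its wild-type array with them, so a high C57 or a low 4D(+/+) array enters several of these differences at once. All 11 skeletal muscle genes were higher by 1.2-fold in each wild-type line than in C57, with sums of 10869 in 4B(+/+) and 45254 in 4D(+/+), against 5477 in C57.

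Several members were measured more than once, and their probe sets did not always tell the same story. The 4 Clic5 probe sets were lower in 4D(+/+) than in C57 by 1.35-fold to 1.40-fold, and higher in 4D(-/-) than in 4D(+/+) by 1.08-fold to 1.31-fold. These 2 directions were thus shared by all 4. The weakest of them, at 69.4 to 97.3 close to the floor, read 74.9 in 4D(-/-), below 79.2 in both arrays of the PDE4B line, while the other 3 placed 4D(-/-) above them. The other Ager probe set, away from the top of the scale, read 5727 in 4B(-/-), 5452 in 4B(+/+), 5349 in 4D(-/-), 4820 in 4D(+/+) and 5925 in C57. It was 1.23-fold lower in 4D(+/+) than in C57, where the brighter one was 1.09-fold lower. The other Hopx probe set was highest in C57, at 6197, with 6008 in 4B(-/-), 5756 in 4B(+/+), 5651 in 4D(-/-) and 5286 in 4D(+/+).

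For Akap5, a weaker probe set read 196 in 4B(-/-), 213 in 4B(+/+), 207 in 4D(-/-), 187 in 4D(+/+) and 283 in C57, with C57 again highest. The third read 129 in 4B(-/-), 160 in 4B(+/+), its highest array, 122 in 4D(-/-), 106 in 4D(+/+) and 129 in C57. The height of Akap5 in C57 was therefore seen in 2 of 3 probe sets, and the direction of 4B(+/+) against C57 turned in the third. The low of Akap5 in 4B(-/-) was seen in the brightest probe set alone, and the weaker ones were lowest in 4D(+/+). Emp2 also disagreed, since 1 of its 3 probe sets read 518 in 4D(-/-) and 520 in 4D(+/+), and 704 in 4B(+/+) against 646 in C57. Of the 18 probe sets, 17 stood higher in 4D(-/-) than in 4D(+/+) and 1 lower, with 3 higher by 1.2-fold, where 47.1% of all probe sets were higher and 10.3% by 1.2-fold. All 18 were lower in 4D(+/+) than in C57, 12 of them by 1.2-fold, where 51.4% were lower and 13.4% by 1.2-fold. Between 4B(-/-) and 4B(+/+) 8 probe sets were higher, 9 lower and 1 equal, where 48.6% of all probe sets were higher and 43.3% lower. When each gene was given the median over its probe sets, 0 of 9 members were higher by 1.2-fold in 4D(-/-), where 8.05% of all genes were.

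**Figure D3:**
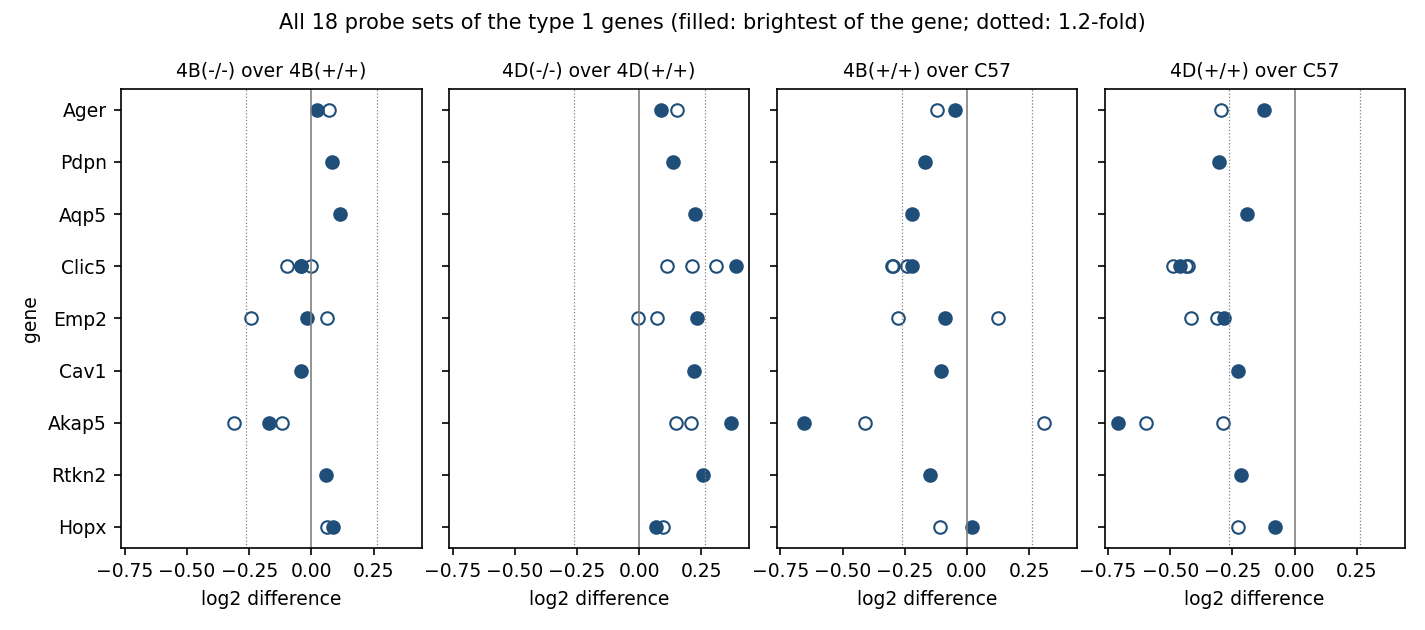
Log2 difference of each of the 18 probe sets in 4 comparisons, 1 row per gene, with filled circles for the brightest probe set of a gene, open circles for its others, and dotted lines at 1.2-fold. All points lie left of 0 for 4D(+/+) over C57, and all but 1, of Emp2, lie right of 0 for 4D(-/-) over 4D(+/+).

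A list of 26 other genes known from type 1 cells was measured to see whether these differences were shared beyond the 9. In 4D(-/-) 11 of the 26 were higher and 1 lower than in 4D(+/+) by 1.2-fold, with 23 higher by any amount and a median of 0.25. Of all genes 9.64% were higher and 16.3% lower by 1.2-fold, and 45.6% higher by any amount. Spock2, a proteoglycan, was 1.48-fold higher, at 287 in 4D(-/-) and 194 in 4D(+/+). Lama3, a laminin chain, was 1.46-fold higher, and the basement membrane collagens Col4a3 and Col4a4 were 1.40-fold and 1.35-fold higher. The keratin gene Krt19, named after its value was seen, was the one lower, by 1.29-fold. In 4D(+/+) 15 of 26 were lower than in C57 and 0 higher, around a median of -0.29, where 12.3% of all genes were lower by 1.2-fold. In 4B(+/+) 12 were lower and 0 higher, around -0.24, where 10.7% of all genes were lower. The medians of the other type 1 genes thus had the signs of those of the 9 members in these 3 comparisons. The comparisons share arrays, and the list was chosen with earlier results of these data known. The like signs are therefore a description and not independent support.

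Within the PDE4B line 0 of the 26 were higher and 1 lower in 4B(-/-) against 4B(+/+), around 0.03. The one was Lmo7, a LIM domain protein of cell junctions, at 1081 in 4B(-/-) and 1507 in 4B(+/+), 1.39-fold lower. The sodium channel subunit gene Scnn1b was 1.18-fold, Igfbp2 1.16-fold and Lama3 1.13-fold higher. Against C57, however, 12 of the 26 were lower in 4B(-/-) by 1.2-fold and 0 higher, around -0.24, where 14% of all genes were lower and 15.8% higher. The 4D(-/-) lungs had 4 lower and 1 higher than C57, where 8.97% of all genes were lower and 6.12% higher by 1.2-fold.

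Genes that act with the members were counted as well, and the counts of these lists and of the cell types after them stand against 9.64% of all genes higher and 16.3% lower by 1.2-fold in 4D(-/-), and 4.55% higher and 5.52% lower in 4B(-/-). Of 6 other caveola genes, 0 were higher and 1, the muscle caveolin Cav3, was lower in 4D(-/-) than in 4D(+/+), at 58.7 against 104, with a median of 0.05. Its 4D(-/-) value lies under the floor of 64, so no fold is given. Ehd2 was 1.13-fold and Cavin1 1.06-fold higher, and Cavin3 1.05-fold lower. In the PDE4B line Cav3 was the one caveola gene past 1.2-fold, at 75.9 in 4B(-/-) and, again under the floor, 53.2 in 4B(+/+), and Cav2 was 1.07-fold lower in 4B(-/-). Among 15 genes of kinase A anchoring, Akap12 was 1.29-fold higher in 4D(-/-), and Prkar2b, a regulatory subunit of the kinase, and Akap1 were 1.54-fold and 1.26-fold lower, around a median of 0.09. Prkar2b was also 1.65-fold and the catalytic subunit gene Prkaca 1.25-fold lower in 4B(-/-), with 0 higher and a median of -0.06. Both wild-type lines were above C57 for Prkar2b. It read 236 in 4B(-/-), 389 in 4B(+/+), 273 in 4D(-/-), 421 in 4D(+/+) and 285 in C57.

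Of the other water channels 3 of 7 were over the floor. Aqp1, the channel of endothelium, read 4034 in 4D(-/-) and 3728 in 4D(+/+), and 4565 in 4B(-/-) and 4035 in 4B(+/+). Aqp3 was 1.78-fold and Aqp4 1.54-fold lower in 4D(-/-) than in 4D(+/+), opposite in direction to Aqp5. In both genes 4D(-/-) lay near C57 and 4D(+/+) was above it. Aqp3 read 156 in 4D(-/-), 278 in 4D(+/+) and 144 in C57, and Aqp4 195, 301 and 208 in the same order. In 4B(-/-) Aqp4 was also lower, by 1.36-fold, at 226 against 308 in 4B(+/+), and Aqp3 was 1.04-fold lower. Of 12 genes of type 1 fate and the YAP and TAZ pathway, which controls the choice between type 1 and type 2 cells, 1 was higher and 2 lower in 4D(-/-), around 0.05. The pathway kinase Lats2 was 1.41-fold higher, and the target genes Ccn1 and Ankrd1 were 1.54-fold and 1.27-fold lower, while the target Ccn2 was 1.16-fold higher, at 5556 in 4D(-/-) and 4777 in 4D(+/+). Ankrd1 was 1.25-fold higher in 4B(-/-) and Ccn2 1.24-fold lower, around -0.01.

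The neighbours of type 1 cells were set beside them. Type 2 genes had a median of 0.16 in 4D(-/-) over 4D(+/+), with 2 of 11 higher by 1.2-fold, the lipid transporter Abca3 at 1.31-fold and Slc34a2 at 1.25-fold, and 0 lower. They had -0.15 in 4D(+/+) over C57, -0.01 in 4B(+/+) over C57 and -0.01 in 4B(-/-) over 4B(+/+). Endothelial genes had 0.13 in 4D(-/-), with 3 of 12 higher, Vwf at 1.40-fold, Ednrb at 1.27-fold and Cdh5 at 1.23-fold. They had -0.19 in both wild-type lines over C57, and 0.07 in 4B(-/-), with Vwf and Tie1 higher. By 1.2-fold 4 were lower in 4D(+/+) than in C57 and 2 in 4B(+/+), where 12.3% and 10.7% of all genes were. The medians of type 1, type 2 and endothelial genes thus had the same sign within the PDE4D line, and no test sets one list apart from another. The same signs were not particular to these lists. Leukocyte genes had 0.29 in 4D(-/-) over 4D(+/+) and -0.19 in 4D(+/+) over C57. Fibroblast and smooth muscle genes had -0.23 and 0.07 in the same order.

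**Figure D4:**
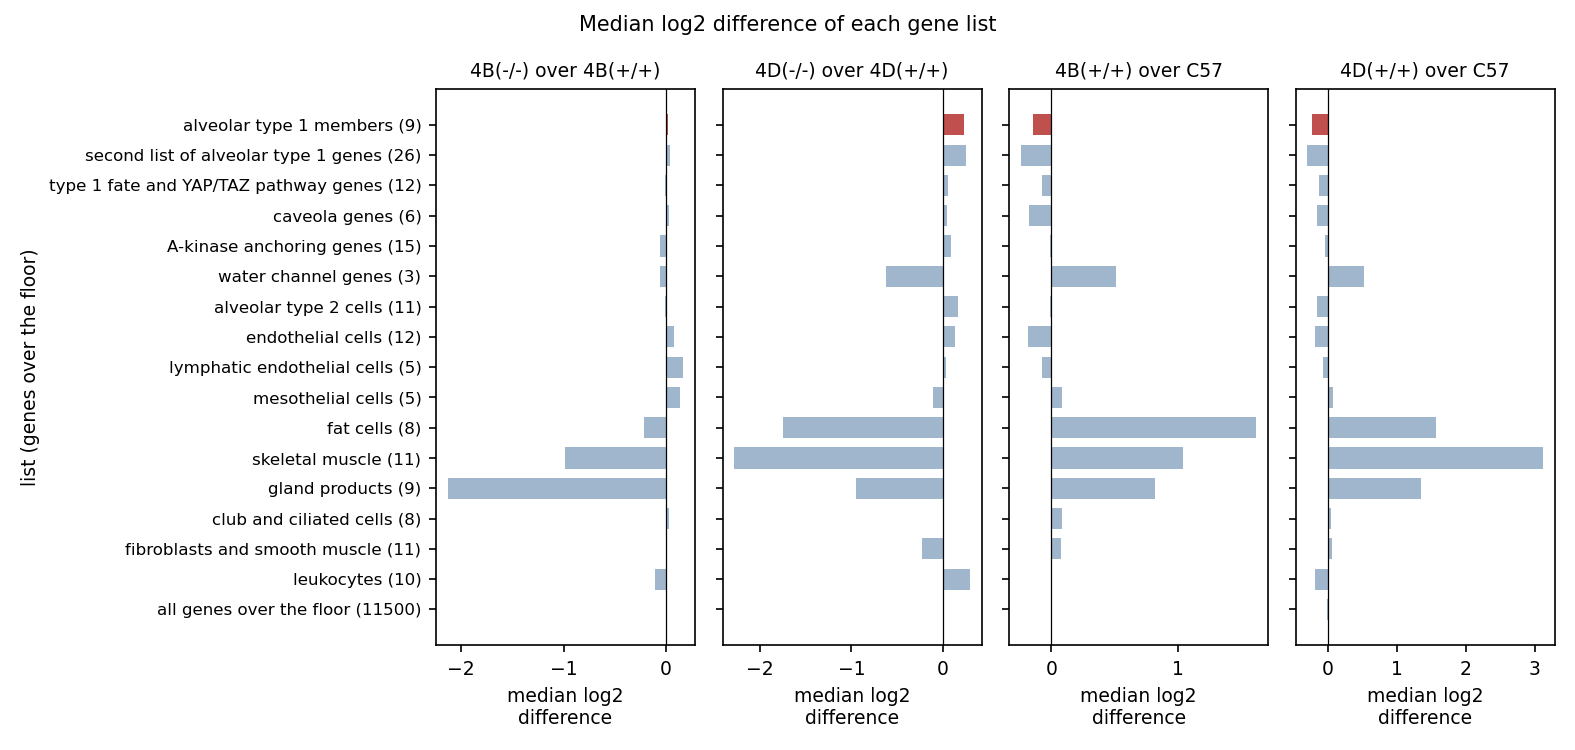
Median log2 difference of each gene list in 4 comparisons, with the number of genes over the floor in brackets, the 9 type 1 genes in red, and a scale of its own for each panel. The type 1 median is 0.23 in 4D(-/-) over 4D(+/+) and -0.23 in 4D(+/+) over C57, while the skeletal muscle median is -2.27 and 3.12 in the same panels.

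Akap5 had the widest range of the 9, and the 3 genes whose course over the 5 arrays was most like it were Ms4a1, Hnrnpd and Serinc3. The measure was the root-mean-square difference of log2 values centred on each gene's mean, at 0.04 for Ms4a1 and 0.05 for the other two. Ms4a1, which encodes the B-cell antigen CD20, read 340 in 4B(-/-), 365 in 4B(+/+), 494 in 4D(-/-), 371 in 4D(+/+) and 585 in C57. Like the brightest Akap5 probe set it was highest in C57, followed by 4D(-/-), and lowest in 4B(-/-). The 5 arrays leave room for many genes of like course, and this likeness is a description only.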

How the data were processed

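The authors deposited a linear intensity for every probe set on each array, made with RMA per the submitters' processing notes. The labels and those notes state neither the settings of RMA nor the genome build of the probe sets. Some probe sets hold identical values on several arrays. Intensities were converted to log2 and kept as deposited. The platform annotation gave 1 symbol for 34958 of 45101 probe sets, the ones used. Another 932 had several symbols and 9211 had none.

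A gene was represented by the brightest of its probe sets, by mean log2 over the arrays, and kept if its highest array reached log2 6. Differences were called at 1.2-fold or 1.5-fold. With 1 array of pooled RNA per strain no test was possible, and the number of arrays limits precision. Of 172 listed symbols in 15 other lists 164 were measured and 152 passed the floor. Named were all members, up to 4 genes per list with the largest difference in each knockout comparison, and the 3 genes most like the widest-ranging member. Members and lists were chosen with earlier results of these data known. Promoter sequences are RefSeq's, on GRCm38.p6. Alternatives were median probe sets, floors of log2 5 and 7, cyclic loess (limma 3.58.1), centring on the median, other wild-type arrays and 1.5-fold. The calling step was tested on simulated data.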

Additional observations from a re-analysis of the deposited data

Results flagged for a closer look

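For 4 members the log2 differences of the 2 knockouts from their own wild-type lines had opposite signs. The 4D(-/-) difference exceeded the 4B(-/-) difference by 0.54 for Akap5, at 0.37 in 4D(-/-) and -0.17 in 4B(-/-), and by 0.43 for Clic5, at 0.39 in 4D(-/-) and -0.04 in 4B(-/-). The gap was 0.26 for Cav1, at 0.22 and -0.04 in the same order, and 0.25 for Emp2, at 0.23 and -0.02. For Emp2 the opposite signs were seen in the brightest probe set only. Another Emp2 probe set gave 0.071 in 4D(-/-) and 0.063 in 4B(-/-), and the third -0.005 and -0.243. None of the 4 differences in 4B(-/-) reached 1.2-fold. With 1 array per strain none of these gaps was tested. Outlying samples could not be sought, since each strain had 1 array.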

How the results depend on the processing

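No paired analysis was possible because each strain had 1 array and the labels give no shared replicate numbers, and leaving out a replicate was not possible either. The floors of log2 5 and 7 could not change the members, which all lie above them, and are left out of these counts. Of 62 other recomputed medians and counts 48 stayed within the spread of the wild-type arrays or within 1.5 times the count, and 14 moved. For the members' median that spread was a standard deviation of 0.12 over the 3 wild-type arrays. It includes the low 4D(+/+) and the high C57 values, so it is a wide bound. The median in 4D(-/-) over 4D(+/+), 0.226, counted as having stayed at 0.1475 with median probe sets. With C57 in place of the own wild-type line the members' median was -0.104 in 4B(-/-) and -0.038 in 4D(-/-), with 1 member lower by 1.2-fold in each and 0 higher in 4D(-/-). In the same setting 7 members turned sign in 4D(-/-), with Clic5 at -0.072 and Akap5 at -0.341, and 4 in 4B(-/-). The 26 other type 1 genes had a median of -0.091 in 4D(-/-). Averaging the 3 wild-type arrays in its place gave 1 member lower in 4B(-/-) and 0 higher in 4D(-/-), with a median of 0.103 in 4D(-/-), where Pdpn turned to -0.009. When probe sets were summarised by their median, 0 members were higher in 4D(-/-) and 3 lower in 4B(+/+). Cyclic loess left 2 members lower in 4D(+/+) than in C57. Centring put the median of all genes at 0.048 in 4D(-/-) over 4D(+/+) and gave 6 members higher by 1.2-fold, where 13.7% of all genes were. At 1.5-fold 0 members were higher in 4D(-/-) and 1 lower in 4D(+/+). The count lowest in 4D(+/+) was 7 or 8 and that highest in C57 5 or 6 in the alternatives of probe set and scaling, checked after seeing the data. Of 168 values of single members and the median of the 26 other genes 23 moved beyond the spread of the wild-type arrays, 13 of them with C57, and 2 differences past 1.2-fold, of Clic5 and Akap5 with C57, turned sign. Member differences under 1.2-fold turned sign in 14 further cases, 9 of them with C57.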

Other observations

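Genes of other cell types were counted in the same way, beside 9.64% of all genes higher and 16.3% lower by 1.2-fold in 4D(-/-), and 4.55% higher and 5.52% lower in 4B(-/-). Of 5 lymphatic endothelial genes, Lyve1 was 1.22-fold higher in 4D(-/-) than in 4D(+/+) and 0 were lower, and in 4B(-/-) Thy1, which T cells also express, was 1.51-fold higher. The mesothelial gene Msln was 2.25-fold lower in 4D(-/-), 1 of 5, and Upk3b was 1.37-fold higher in 4B(-/-), 1 of 5. The lymphatic medians were 0.03 in 4D(-/-) and 0.17 in 4B(-/-), and the mesothelial medians -0.11 and 0.13 in the same order. Pdpn, which both cell types express, was 1.10-fold higher in 4D(-/-) and 1.06-fold higher in 4B(-/-), and the part of these cells in it was not tested.

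Of 8 club and ciliated cell genes 1 was lower in 4D(-/-), Dynlrb2 at 1.33-fold, and 0 passed 1.2-fold in 4B(-/-), with medians of 0.00 and 0.02. Of 11 fibroblast and smooth muscle genes 3 were higher in 4D(-/-), led by Col1a1 at 2.03-fold, and 5 lower, among them Des and Cnn1 at 1.45-fold each, around -0.23, and 0 passed 1.2-fold in 4B(-/-). Of 10 leukocyte genes 6 were higher in 4D(-/-), led by Marco at 2.66-fold, and 2 lower, S100a8 at 2.07-fold and S100a9 at 2.01-fold. The leukocyte median was 0.29 in 4D(-/-) and -0.11 in 4B(-/-). Within the PDE4B line 0 leukocyte genes were higher and 3 lower in 4B(-/-), with Ptprc at 1.28-fold, Cd68 at 1.27-fold and Itgax at 1.204-fold.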
